A study of Mus musculus with 8 samples.

Results

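The 45 genes described here mark cells that copy their DNA or divide. They were chosen by symbol, 19 as S phase genes and 26 as G2/M genes, from the 54532 rows of a table of read counts from mouse prostates, and all 45 had a row. The prostates came from 8 male NOD/ShiLtJ mice, a strain that develops autoimmune diabetes. The 4 control mice (animals 1, 3, 65 and 69) were injected with PBS into the peritoneum. The 4 treated mice (animals 17, 19, 50 and 52) received etanercept, a soluble TNF receptor fused to an antibody Fc part that binds and blocks TNF, at 4 mg/kg. Both groups were injected 2 times a week for 5 weeks from an age of 25 weeks, and tissue was taken at 30 weeks. All mice carry the NOD background, and the labels do not say which were diabetic. RNA was measured in bulk prostate tissue, so fewer dividing cells and less RNA per dividing cell cannot be told apart. The comparison addresses whether blocking TNF changed the expression of proliferation genes in the inflamed prostate.

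The S phase genes act before and during DNA replication. Cyclin E (Ccne1 and Ccne2) and E2f1 open the phase, Cdc6 and Cdt1 load the MCM helicase (Mcm2 to Mcm7) onto origins, Cdc45 and Gins2 activate it, Pcna clamps the polymerase to DNA, and Rrm1, Rrm2, Tyms and Tk1 make deoxynucleotides. The G2/M genes follow: Cdk1 with cyclins A and B drives entry into mitosis, Foxm1 activates their transcription, the Aurora and Plk1 kinases and kinesins build the spindle, Bub1 and Bub1b form its checkpoint, Cdc20 and Ube2c start the degradation of cyclins, and Anln and Ect2 act in cytokinesis. E2F factors switch on the first set, and the MuvB complex with B-Myb and FOXM1 switches on the second, through promoter elements named CHR, often beside CCAAT boxes bound by NF-Y.

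The promoters of the members differ by phase in these elements. Windows of 250 bases before to 50 bases after the start, from RefSeq on GRCm38.p6, were matched to 16 of 19 S phase and 21 of 26 G2/M genes and searched on both strands for CCAAT, for the CHR word TTTGAA and for the E2F words TTTCCCGC, TTTCGCGC, TTTGCCGC and TTTGGCGC. Words may overlap one another. The CHR word was in 16 of the 21 G2/M promoters (76.2%), in 2 of the 16 S phase promoters (12.5%) and in 15.6% of all 16512 promoters. An E2F word was in 6 S phase promoters (37.5%), in 1 G2/M promoter (4.76%) and in 2.95% of all promoters. CCAAT was more evenly spread, with 18 G2/M promoters (85.7%), 10 S phase promoters (62.5%) and 38.8% of all promoters. A match shows only that these letters are in the window. The other S phase genes of a wider list, given below, held an E2F word in 13 of 34 promoters (38.2%) and the CHR word in 6 (17.6%), and the other G2/M genes held them in 4 of 44 (9.09%) and 29 (65.9%). The wider lists thus differed by phase in the same direction.

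The promoters of 4 G2/M genes and 3 S phase genes that the results below turn on are printed to show both layouts, 5′ to 3′ on the strand of the gene, with every matched word or its reverse complement in capitals. Mki67 lies at chr7:135716330-135716629 (minus strand), Cdc20 at chr4:118437294-118437593 (minus strand), Plk1 at chr7:122159185-122159484 (plus strand) and Cdk1 at chr10:69352863-69353162 (minus strand). Mcm5 lies at chr8:75109259-75109558 (plus strand), Mcm6 at chr1:128359656-128359955 (minus strand) and Mcm3 at chr1:20820263-20820562 (minus strand).
Mki67: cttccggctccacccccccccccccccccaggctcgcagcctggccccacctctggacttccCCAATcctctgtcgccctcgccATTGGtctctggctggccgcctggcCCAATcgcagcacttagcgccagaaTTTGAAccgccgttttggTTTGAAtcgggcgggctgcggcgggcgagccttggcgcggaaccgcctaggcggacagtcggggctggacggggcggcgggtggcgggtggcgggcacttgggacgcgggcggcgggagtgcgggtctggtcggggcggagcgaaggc
Cdc20: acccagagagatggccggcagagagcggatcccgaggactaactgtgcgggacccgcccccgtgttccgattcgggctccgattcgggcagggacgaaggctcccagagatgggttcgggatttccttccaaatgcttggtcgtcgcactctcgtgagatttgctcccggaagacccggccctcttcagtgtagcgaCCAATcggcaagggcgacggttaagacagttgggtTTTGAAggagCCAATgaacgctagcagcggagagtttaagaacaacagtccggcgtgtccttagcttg
Plk1: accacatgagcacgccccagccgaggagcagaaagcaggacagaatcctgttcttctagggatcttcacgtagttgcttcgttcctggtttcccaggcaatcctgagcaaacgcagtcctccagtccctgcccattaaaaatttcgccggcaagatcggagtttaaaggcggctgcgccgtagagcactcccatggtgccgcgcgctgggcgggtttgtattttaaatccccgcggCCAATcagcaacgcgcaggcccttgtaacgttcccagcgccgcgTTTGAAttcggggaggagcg
Cdk1: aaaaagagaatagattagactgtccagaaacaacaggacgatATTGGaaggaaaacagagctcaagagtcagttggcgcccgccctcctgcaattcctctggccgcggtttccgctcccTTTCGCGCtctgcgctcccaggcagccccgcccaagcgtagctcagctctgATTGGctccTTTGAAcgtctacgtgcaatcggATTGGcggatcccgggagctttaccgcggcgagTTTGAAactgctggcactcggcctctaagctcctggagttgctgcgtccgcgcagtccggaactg
Mcm5: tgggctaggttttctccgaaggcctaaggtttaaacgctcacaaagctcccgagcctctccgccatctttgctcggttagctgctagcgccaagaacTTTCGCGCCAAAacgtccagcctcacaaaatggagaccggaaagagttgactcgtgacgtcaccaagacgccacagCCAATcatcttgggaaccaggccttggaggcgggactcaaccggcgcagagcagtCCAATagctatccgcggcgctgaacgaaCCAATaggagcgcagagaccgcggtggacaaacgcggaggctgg
Mcm6: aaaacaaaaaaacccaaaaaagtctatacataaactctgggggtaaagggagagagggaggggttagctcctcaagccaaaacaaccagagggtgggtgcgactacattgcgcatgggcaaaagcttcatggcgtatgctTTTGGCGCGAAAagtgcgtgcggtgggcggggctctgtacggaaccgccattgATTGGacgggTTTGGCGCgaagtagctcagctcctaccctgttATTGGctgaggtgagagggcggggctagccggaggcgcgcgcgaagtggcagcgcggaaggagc
Mcm3: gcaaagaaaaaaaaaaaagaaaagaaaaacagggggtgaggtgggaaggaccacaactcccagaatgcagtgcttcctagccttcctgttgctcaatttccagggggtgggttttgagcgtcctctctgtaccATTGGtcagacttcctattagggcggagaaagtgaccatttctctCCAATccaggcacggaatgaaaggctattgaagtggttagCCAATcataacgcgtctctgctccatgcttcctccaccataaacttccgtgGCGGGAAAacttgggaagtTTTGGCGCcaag

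The Mki67 window holds 3 CCAAT and 2 CHR words and no E2F word. Cdc20 has 2 CCAAT and 1 CHR word, and Plk1 has 1 of each. Cdk1 is the G2/M gene with an E2F word, beside 3 CCAAT and 2 CHR words. The printed MCM windows hold no CHR word, whereas the window of Mcm2, not printed, holds 1. Mcm5 and Mcm3 have 3 CCAAT and 2 E2F words each, and Mcm6 has 2 CCAAT and 3 E2F words, some of them overlapping.

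The deposited counts summed to between 13760669 and 25178942 per mouse. Before any comparison, control 3 stood apart from the other 7 mice. The 45 members took 0.0759% of its counts, against 0.0227% in etanercept 19, the lowest mouse, and 0.0364% in etanercept 52, the next highest. Control 3 had the highest level of all 8 mice in 40 of the 45 members, where it was highest in 13% of the 15472 tested genes. The phase levels, the counts by sign and the fold changes of the named genes are therefore given with and without this mouse. Levels are CPM (counts scaled to a common total) after TMM scaling, a factor per mouse that corrects for uneven composition. Prostate markers (Pbsn, Hoxb13, Krt8 and Krt18) were present in every mouse.

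No member changed with etanercept at the threshold used. In edgeR's quasi-likelihood test over 15472 genes, with p-values adjusted by Benjamini and Hochberg, 0 of 45 members had an adjusted p of at most 0.05, and the background share of called genes was 0%. Before adjustment, at the same threshold of 0.05, 1 member (Mki67) was lower with etanercept, 2.22% of the members against a background of 3.63% of all tested genes, and 0 were higher against a background of 2.99%. DESeq2 gave the same counts, with 0 members called after adjustment (background 0.0898%), 1 lower without adjustment (3.6%) and 0 higher (2.24%). The levels of the groups overlapped in all 45 members. Over all tested genes, 2.53% lay wholly lower with etanercept and 2.41% wholly higher. All 45 members passed the filter on low counts, and 34 of them had at least 10 counts in every mouse.

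**Figure D1:**
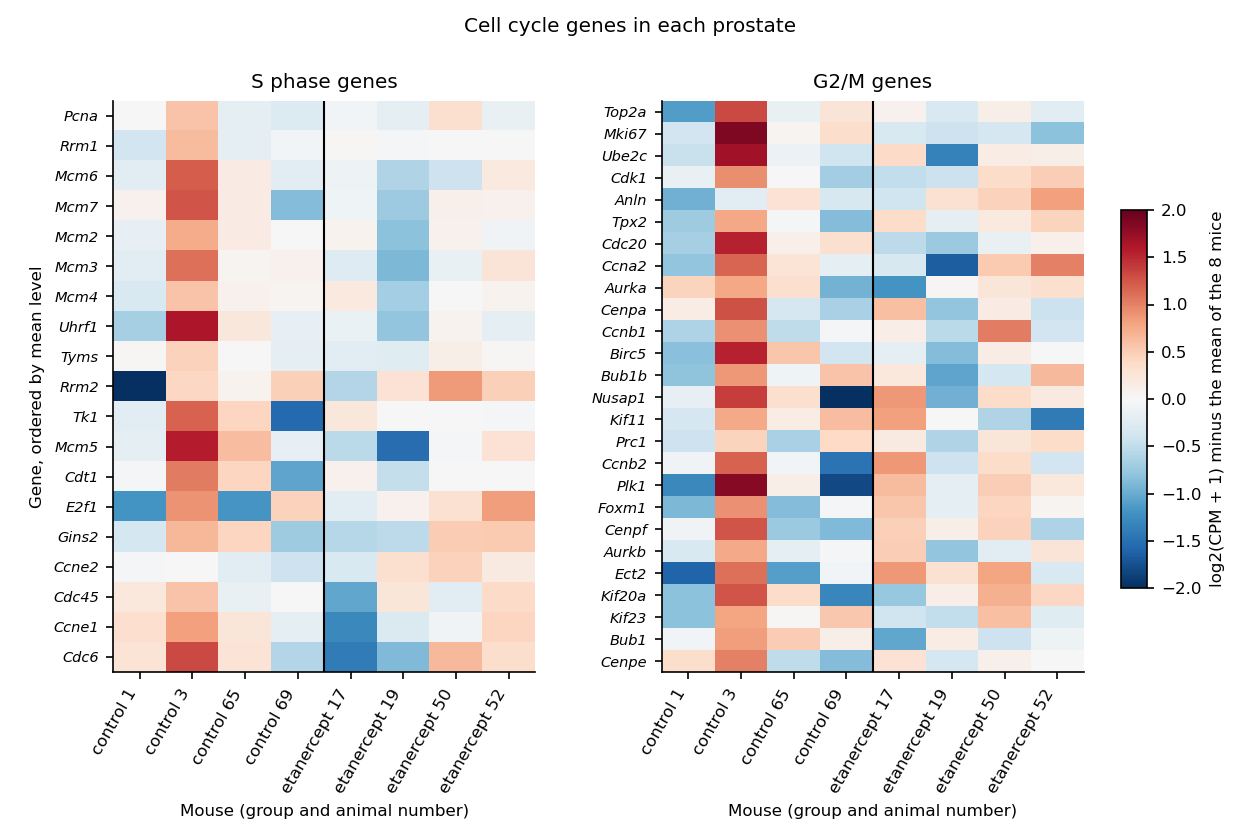
Level of each member in each mouse as log2(CPM + 1) minus its mean over the 8 mice, with S phase genes on the left and G2/M genes on the right, ordered by mean level and with a line between the control and etanercept mice. The column of control 3 is red in most rows, since this mouse was highest in 40 of the 45 members.

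The S phase genes together showed no separation of the groups. Their mean log2(CPM + 1) was 2.99 in control 1, 4.13 in control 3, 3.34 in control 65 and 2.98 in control 69, and it was 2.94, 2.85, 3.40 and 3.45 in etanercept 17, 19, 50 and 52. The highest value was that of control 3, and the 7 other mice lay between 2.85 and 3.45 with the groups interleaved. The group means were 3.36 ± 0.54 in controls and 3.16 ± 0.31 with etanercept (SD, n = 4 each), a difference of -0.20. Without control 3 the difference was 0.06, with the sign turned.

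The G2/M genes showed the same layout at a lower level. Their mean was 1.69 in control 1, 3.27 in control 3, 2.11 in control 65 and 1.83 in control 69, and 2.29, 1.77, 2.43 and 2.22 in etanercept 17, 19, 50 and 52. Control 3 was again above all other mice, by 0.85, and etanercept 17, 50 and 52 were above the other 3 controls. The group means were 2.23 ± 0.72 and 2.18 ± 0.28 (SD, n = 4 each), a difference of -0.05 with control 3 and of 0.30 without it.

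Set against the other controls, control 3 was raised by 1.03 in S phase genes and by 1.40 in G2/M genes on the log2(CPM + 1) scale. Its share of counts for S phase genes was 1.90 times that of the next mouse, and for G2/M genes 2.34 times. The difference between both phases, S phase minus G2/M, was 1.30, 0.86, 1.22 and 1.15 in the controls and 0.65, 1.08, 0.97 and 1.23 with etanercept. Control 3 and etanercept 17 thus held the lowest S phase level relative to G2/M. The means were 1.14 ± 0.19 and 0.98 ± 0.25 (SD, n = 4 each), and the difference of -0.15 was smaller than the SD of either group. It was -0.24 without control 3 and -0.04 without etanercept 17.

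**Figure D2:**
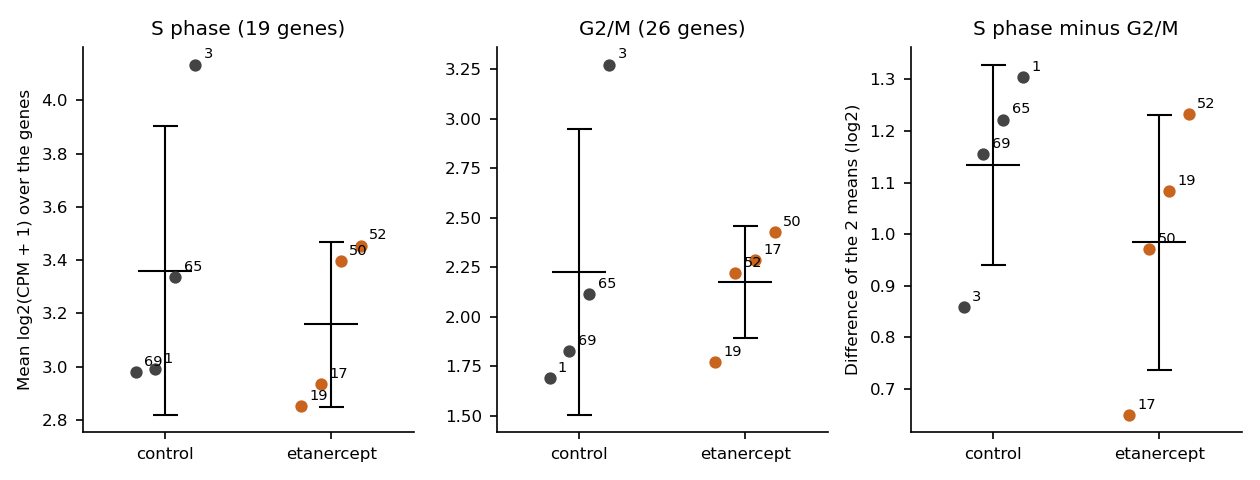
Mean log2(CPM + 1) of the 19 S phase genes and of the 26 G2/M genes, and the difference between them, per mouse, with the animal number beside each point and the mean and SD of each group as lines. Control 3 is the highest point for both phases, at 4.13 and 3.27, and the other points of the groups overlap.

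By sign alone, 16 of 19 S phase and 17 of 26 G2/M genes had a lower fitted level with etanercept, against 51% of all tested genes. The median log2 fold change was -0.34 for S phase genes, -0.14 for G2/M genes and -0.01 for all tested genes. Without control 3, 10 S phase and 8 G2/M genes were on the lower side, against 50.3% of all tested genes in that fit, and the medians were -0.02 and 0.33. The direction of the G2/M median thus turned with this mouse, and that of the S phase genes came close to 0. The precision of a single member was limited. The median 95% interval reached 1.14 to either side of the log2 fold change for S phase genes and 1.47 for G2/M genes. Over all tested genes it reached 0.784. For a typical member, a smaller change than this left 0 inside the interval even before adjustment. The intervals are not adjusted for the number of genes, so larger changes need not be called either. The interval of Mki67 lay from -2.49 to -0.19, yet its adjusted p was 0.739 in edgeR.

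**Figure D3:**
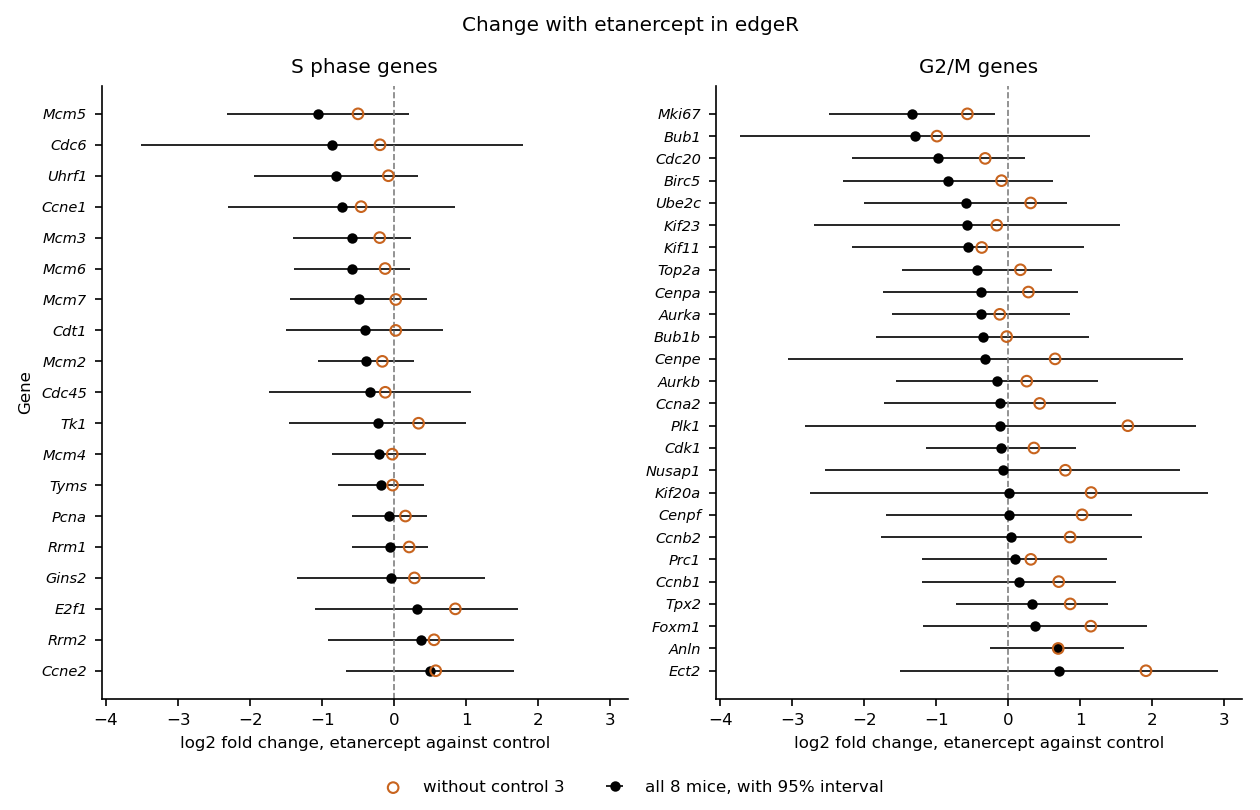
Log2 fold change of each member, etanercept against control, in edgeR with all 8 mice (filled points with 95% intervals) and without control 3 (open points). Mki67 is the member whose interval does not reach 0, from -2.49 to -0.19, and open points lie to the right of the filled ones in nearly every row.

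Among the genes that open S phase, neither cyclin E gene nor E2f1 separated the groups, and the 2 cyclin E genes had fold changes of opposite sign. Ccne2 was at 2.35, 2.40, 1.90 and 1.56 CPM in controls 1, 3, 65 and 69. It was at 1.75, 3.26, 3.71 and 2.84 CPM in etanercept 17, 19, 50 and 52, so that etanercept 19, 50 and 52 were above every control. The log2 fold change of Ccne2 was 0.49 (SE 0.52), and 0.58 without control 3. Ccne1 was at 3.15, 4.80, 2.89 and 1.91 CPM in controls 1, 3, 65 and 69 and at 0.349, 1.71, 2.15 and 3.46 CPM in etanercept 17, 19, 50 and 52, so that the low mouse was etanercept 17. E2f1, a transcription factor for replication genes, was at 1.74, 10.6, 1.76 and 7.64 CPM in controls and at 4.37, 5.67, 6.76 and 10.2 CPM with etanercept. Here controls 1 and 65 were below all other mice, and the treated mice lay between the lowest and the highest control. Log2 fold changes were -0.73 (SE 0.71) for Ccne1 and 0.31 (SE 0.63) for E2f1, and -0.46 and 0.85 without control 3. E2f1 was at -0.012 without control 1 and at -0.0047 without control 65. Cdc6, which loads the helicase, had the lowest level per length of the S phase genes, 0.397 FPKM (counts scaled by exon length and sequencing depth). It was listed at 0 counts in etanercept 17 and reached 5.601 CPM in control 3, and its log2 fold change of -0.86 (SE 1.18) became -0.20 without that mouse.

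The subunits of the MCM helicase shared a layout. All 6 were highest in control 3 and all 6 had a negative log2 fold change, from -1.06 (Mcm5) to -0.22 (Mcm4). Without control 3 Mcm7 turned to 0.02 and Mcm4 was at -0.03. Mcm5 was at 6.87, 25.7, 12.8 and 7.06 CPM in controls and at 5.24, 2.14, 7.77 and 9.98 CPM with etanercept. Control 3 was 2.01 times the next mouse, and the ranges overlapped from 6.87 to 9.98 CPM. Its log2 fold change was -1.06 (SE 0.56, 95% interval -2.33 to 0.20, adjusted p = 0.785 in edgeR), and -0.50 without control 3.

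Mcm6 was at 19.5, 54.2, 25.9 and 19.6 CPM in controls and at 21.3, 14.7, 16.98 and 26.5 CPM with etanercept. Mcm3 was at 14.0, 36.5, 17.05 and 17.5 CPM in controls and at 13.6, 8.34, 14.7 and 19.8 CPM with etanercept. In both genes control 3 was highest, etanercept 52 was second highest and etanercept 19 was lowest. The log2 fold changes of -0.58 (SE 0.36) and -0.59 (SE 0.36) became -0.13 and -0.20 without control 3. For Mcm2 the values were -0.39 (SE 0.30) and -0.17. Per length, the subunit with the highest level was between 2.07 and 5.88 times the lowest within a mouse. The widest ratio was in etanercept 19, where Mcm5 was at 0.536 FPKM and Mcm6 at 3.15 FPKM.

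Pcna, the clamp of the replication fork, had the highest level per length of all members, 12.3 FPKM, and was at 28.8, 43.4, 25.2 and 23.7 CPM in controls and 27.8, 25.2, 36.4 and 26.1 CPM with etanercept. Its log2 fold change of -0.07 had a 95% interval from -0.59 to 0.45 and turned to 0.16 without control 3. Rrm1, the large subunit of ribonucleotide reductase, was within 27.9 ± 0.517 CPM with etanercept (SD, n = 4) and at 29.0 ± 10.1 CPM in controls, with control 3 at 43.7 CPM. For Rrm1 the log2 fold change was -0.06 with all mice and 0.21 without control 3. Rrm2, the small subunit, behaved differently. It was at 1.74, 13.8, 10.6 and 14.4 CPM in controls and at 6.41, 12.5, 19.1 and 14.4 CPM with etanercept, with control 1 far below the rest and control 3 inside the range of the others. The fitted log2 fold change was 0.37 (SE 0.58), 0.55 without control 3 and 0.00017 without control 1. Pcna may share reads with the pseudogene Pcna-ps2, which held 1861 counts against 4149 for Pcna.

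Uhrf1, which keeps DNA methylation through replication, showed a large gap between control 3 and the rest. It was at 6.26, 34.1, 12.5 and 9.26 CPM in controls and at 9.44, 5.62, 11.1 and 9.15 CPM with etanercept. Control 3 was 2.73 times the next mouse, and the other 7 lay between 5.62 and 12.5 CPM. The log2 fold change was -0.81 (SE 0.51) with all mice and -0.08 without control 3.

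Of the G2/M genes, Mki67 differed most between the groups by its p-value. Mki67 encodes the Ki-67 antigen, the usual histological marker of cycling cells, and lies on chromosome 7 from 135689784 to 135716361 on the minus strand (GRCm38). It was at 6.26, 33.5, 8.80 and 11.1 CPM in controls and at 6.64, 6.10, 6.46 and 4.37 CPM with etanercept. The treated mice lay in a narrow range, and 3 of 4 controls were above all of them, while control 1 lay among them. The means were 14.9 ± 12.6 and 5.89 ± 1.04 CPM (SD, n = 4 each). The log2 fold change was -1.34 (SE 0.51, 95% interval -2.49 to -0.19), with an unadjusted p = 0.027 and an adjusted p = 0.739 in edgeR. A two-sided exact permutation test over the 70 assignments of the mice gave p = 0.0857, where 0.0286 is the smallest it allows. Without control 3 the log2 fold change was -0.57, with an unadjusted p = 0.147 in edgeR.

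Top2a, the topoisomerase that untangles chromosomes, did not follow Mki67. It was at 6.33, 38.7, 13.2 and 17.9 CPM in controls and at 15.8, 11.8, 16.1 and 12.7 CPM with etanercept, so that controls lay on both sides of the treated mice. The log2 fold change was -0.43 (SE 0.47), and 0.17 without control 3.

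The mitotic kinase Cdk1 and its cyclins likewise overlapped. Cdk1 was at 6.36, 14.4, 7.04 and 3.99 CPM in controls and at 4.78, 5.03, 9.45 and 10.4 CPM with etanercept. Its log2 fold change was -0.10 (SE 0.46, 95% interval -1.14 to 0.94) and turned to 0.36 without control 3, to 0.062 without etanercept 17 and to 0.047 without etanercept 19. Ccna2 (cyclin A2) ranged from 2.57 to 12.7 CPM in controls and from 0.963 to 11.3 CPM with etanercept. Ccnb1 (cyclin B1) was highest in etanercept 50, at 9.21 CPM, with control 3 at 8.47 CPM and the other mice at 4.48 CPM or lower. Log2 fold changes were -0.12 (SE 0.72) for Ccna2 and 0.14 (SE 0.60) for Ccnb1, and 0.44 and 0.70 without control 3. Without etanercept 52 Ccna2 was at -0.63, and without etanercept 50 Ccnb1 turned to -0.40. Foxm1, the transcription factor of these genes, was at 0.868, 5.53, 0.916 and 2.43 CPM in controls and at 4.14, 2.09, 3.71 and 2.63 CPM with etanercept. Its log2 fold change of 0.37 (SE 0.69) became 1.15 without control 3 and 0.055 without control 1.

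Cdc20, the activator of the anaphase-promoting complex, had the highest level per length of the G2/M genes, 3.62 FPKM. It was at 3.29, 18.8, 6.27 and 7.47 CPM in controls and at 3.73, 3.05, 5.14 and 6.31 CPM with etanercept. Control 3 was 2.52 times the next mouse, and the other controls lay within or just above the treated range. The log2 fold change was -0.97 (SE 0.54, 95% interval -2.17 to 0.23, adjusted p = 0.790 in edgeR), and -0.32 without control 3. Birc5 (survivin, of the chromosomal passenger complex) was at 1.77, 13.3, 6.27 and 2.78 CPM in controls and at 3.32, 1.71, 4.48 and 3.95 CPM with etanercept. Its log2 fold change of -0.84 (SE 0.65) became -0.09 without control 3.

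Plk1, a mitotic kinase, had the widest range of the G2/M genes, with 12, 171, 40 and 0 counts in controls and 76, 39, 66 and 44 counts with etanercept. Its log2 fold change was -0.11 (SE 1.21) with all mice and 1.66 without control 3. Bub1, a checkpoint kinase, was listed at 0 counts in etanercept 17 and reached 40 counts at most, with a log2 fold change of -1.30 (SE 1.08), and -0.99 without control 3. The kinetochore motor Cenpe had the lowest level per length of all members, 0.112 FPKM, and was at 0 counts in control 69. For Cenpe the log2 fold change was -0.32 (SE 1.22) and turned to 0.65 without control 3. A count of 0 allows a share of up to 1.59e-05% of the counts of control 69 (3 counts) and covers counting error only.

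Anln, which encodes the cytokinesis protein anillin, had a layout unlike that of most members. It was at 3.15, 6.001, 8.88 and 5.44 CPM in controls and at 5.13, 8.98, 10.1 and 13.3 CPM with etanercept. Here 3 of 4 treated mice were above every control, control 3 lay inside the range, and etanercept 17 was the low treated mouse. The log2 fold change was 0.68 (SE 0.42, 95% interval -0.25 to 1.61, adjusted p = 0.822 in edgeR), and it was 0.69 without control 3. The remaining members whose highest mouse was not control 3 were Ccne2, Rrm2 and Ccnb1, each highest in etanercept 50, and Kif11, highest in etanercept 17.

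**Figure D4:**
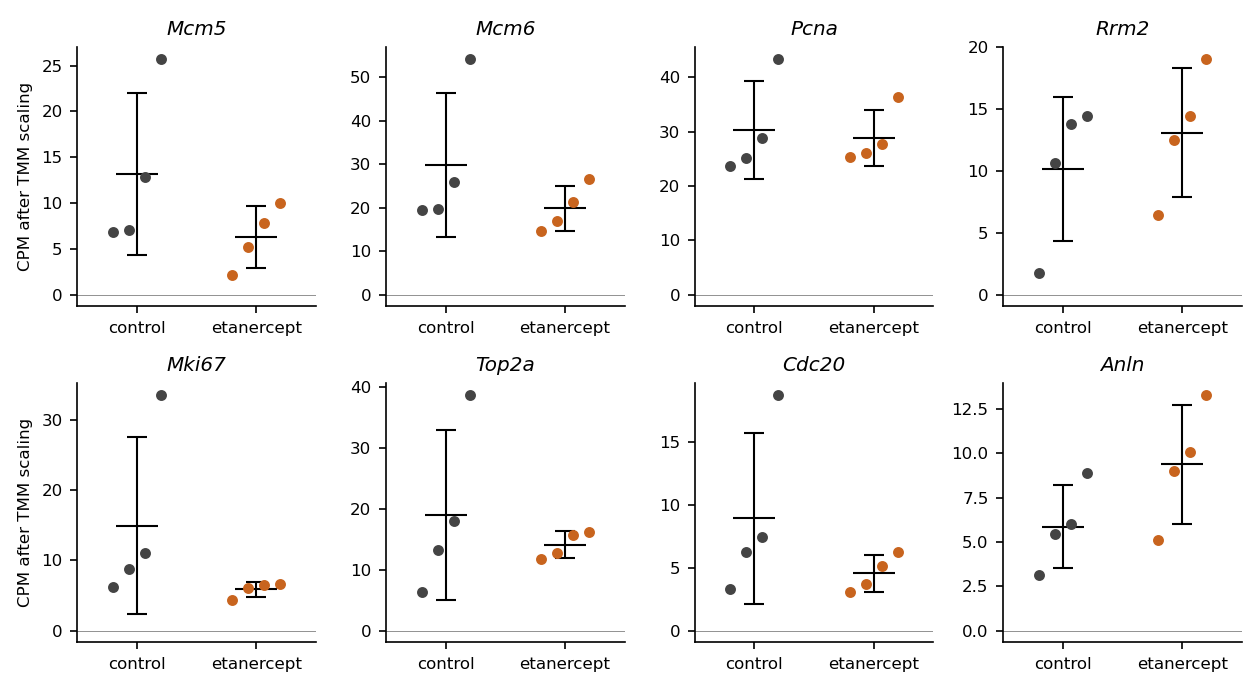
CPM after TMM scaling of 4 S phase genes (top) and 4 G2/M genes (bottom) in each control and etanercept mouse, with the mean and SD of each group as lines. Single control points far above the rest, as for Mki67 at 33.5 and Mcm6 at 54.2 CPM, are control 3, and Rrm2 and Anln lack such a point.

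Levels and spread also differed by phase. The median level per length was 2.43 FPKM for S phase genes and 0.912 FPKM for G2/M genes, against 3.67 FPKM for all tested genes. The median biological coefficient of variation, the spread between mice that edgeR fits, was 0.517, 0.660 and 0.386. The SD of log2(CPM + 1) was larger in controls than with etanercept in 13 of 19 S phase and 21 of 26 G2/M genes, against 59.8% of all tested genes. Its median over the 45 members was 0.783 in the 4 controls, 0.498 with etanercept and 0.495 in the 3 controls without control 3.

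Members tended to go up and down together over the mice. The median Spearman correlation over the 8 mice was 0.476 for pairs of S phase genes, 0.452 for pairs of G2/M genes and 0.429 for pairs across phases, and 0 for all pairs of tested genes. Over the 7 mice without control 3 it was 0.286, 0.214, 0.214 and 0. These values describe pairs that share the same few mice and libraries and carry no test.

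Other genes of the cell cycle, taken from wider hand-written lists, were examined in the same fit. Of 46 other S phase genes 43 were tested, 0 were called after adjustment, and 2 had a lower level at p of at most 0.05 before adjustment, 4.65% of those tested against the background of 3.63%. Without control 3 neither of them passed, and 0 of these genes were lower, against 3.03% of all tested genes in that fit. Rpa2, of the single-strand binding complex, was at 23.7, 29.9, 20.1 and 7.81 CPM in controls and 4.37, 13.9, 10.2 and 9.35 CPM with etanercept, with a log2 fold change of -1.11 (SE 0.45, adjusted p = 0.739 in edgeR). Pold3, a subunit of DNA polymerase delta, was at 29.8, 25.7, 20.1 and 16.3 CPM and 16.0, 19.7, 11.1 and 8.45 CPM, a log2 fold change of -0.73 (SE 0.31, adjusted p = 0.743 in edgeR). In both, control 69 overlapped the treated mice. Nasp, a histone chaperone, followed at -0.66 (SE 0.30). Without control 3 the log2 fold changes were -0.86 for Rpa2, -0.68 for Pold3 and -0.55 for Nasp.

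Of 52 other G2/M genes 48 were tested, and 0 passed with or without adjustment in edgeR, while DESeq2 gave 2 lower without adjustment, near its background of 3.6%, and 0 with it. The smallest p-values belonged to Pttg1 (securin, log2 fold change -1.32, SE 0.60), Cks2 (-0.98, SE 0.45) and Ncapd2 of the condensin complex (-0.67, SE 0.35), and without control 3 their log2 fold changes were -0.94, -0.84 and -0.47. Of the other S phase genes 34 of 43 and of the other G2/M genes 33 of 48 had a negative log2 fold change, against 51% of all tested genes. Without control 3 these numbers were 23 and 16, against 50.3%. Control 3 was the highest mouse in 22 of 43 and 30 of 48 of them, against 13% of all tested genes.

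Of the regulators of G1 all 27 were tested, 0 were called after adjustment, and 1 was higher without it (3.70%, against the background of 2.99%). Rbl2 (p130, a repressor in resting cells) was at 23.6, 41.1, 46.6 and 60.02 CPM in controls and 56.5, 66.4, 62.5 and 70.4 CPM with etanercept, a log2 fold change of 0.58 (SE 0.26, adjusted p = 0.743 in edgeR). DESeq2 gave 0 higher, and without control 3 the log2 fold change was 0.55 with an unadjusted p = 0.101 in edgeR. Control 3 was highest in 3 of the 27 (11.1%, against 13% of all tested genes), and 10 of 27 had a negative log2 fold change (37.0%, against 51%), with and without control 3. Cdkn1a (p21, an inhibitor of cyclin-dependent kinases) was at 135 CPM in control 69 and between 33.3 and 47.9 CPM in the other 7 mice, with a log2 fold change of -0.59 (SE 0.41), -0.82 without control 3 and 0.061 without control 69, so that its direction turned with control 69. Ccnd1 (cyclin D1) was at 52.5 ± 16.4 CPM in controls and 75.9 ± 40.0 CPM with etanercept (SD, n = 4 each), with a log2 fold change of 0.53 (SE 0.40), and 0.71 without control 3. Of the G1 kinases, Cdk6 had a log2 fold change of 0.51 (SE 0.28) and Cdk4 one of -0.26 (SE 0.15), and without control 3 these were 0.49 and -0.26.

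Several marker lists of other cell types were also highest in control 3. The summed level of 8 B cell markers was 405 CPM there and between 45.04 and 188 CPM in the other mice, and that of 8 T cell markers was 151 CPM against at most 99.4 CPM. The 7 macrophage markers summed to 958 CPM in control 3 and to 244 to 493 CPM elsewhere, and the 6 plasma cell markers to 4025 CPM against at most 2366 CPM. None of the B cell, T cell or macrophage markers was at 0 in any mouse. The 6 skeletal muscle markers summed to 1806 CPM in control 3 against at most 1314 CPM, with a mean log2(CPM + 1) of 7.7 against at most 3.0, and 4 of them were at 0 in at least 1 mouse. The 5 adipocyte markers summed to 313 CPM in control 3 and to 20.1 to 165 CPM elsewhere, with 3 of them at 0 in at least 1 mouse. The 5 endothelium markers summed to 117 CPM against at most 70.4 CPM, and the 6 fibroblast markers to 1040 CPM against at most 1023 CPM in etanercept 52. Other lists did not peak in control 3. The 6 germinal centre B cell markers were highest in etanercept 50 (78.4 CPM), with 54.4 CPM or less in the other mice, and the 5 basal epithelium markers were highest in control 1 (472 CPM) and lowest in etanercept 50 (194 CPM). By group, the 6 smooth muscle markers ranged from 3350 to 6987 CPM in controls and from 6423 to 13767 CPM with etanercept. The 5 secretory markers of the prostate summed to between 12102 CPM in control 1 and 245944 CPM in control 69, of which Sbp alone made up 225760 CPM in control 69, whereas Pbsn was highest in control 1 (9172 CPM) and lowest in control 69 (1094 CPM). The T cell markers ranged from 50.5 to 151 CPM in controls and from 42.3 to 64.8 CPM with etanercept. Markers of the seminal vesicle, a neighbouring gland, summed to 97204 CPM in etanercept 17, 4000.7 CPM in control 69 and at most 668 CPM elsewhere, and all 6 were at 0 in at least 1 mouse. The part of these tissues in the levels of the cell cycle genes was not tested.

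**Figure D5:**
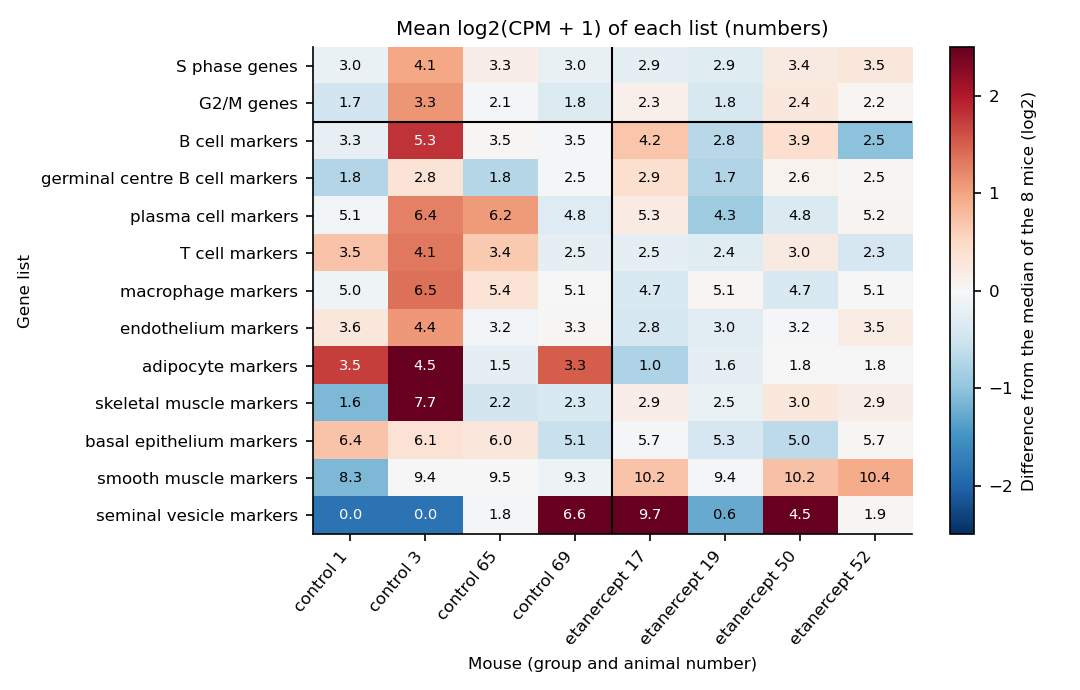
Mean log2(CPM + 1) of the S phase and G2/M genes and of marker lists of cell types and tissues in each mouse (numbers), coloured by the difference from the median of the 8 mice. Control 3 is highest in both rows of cell cycle genes. It is also highest in the B cell, plasma cell, T cell, macrophage, endothelium, adipocyte and skeletal muscle rows. In the plasma cell row control 65 is close to it, at 6.2 against 6.4. Etanercept 17 is high in the seminal vesicle row.

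Some members share exon sequence with a gene on the opposite strand, and without strand reads from the 2 genes cannot be told apart. The overlap covered 67.3% of the exon length of Gins2 (with Gse1), 29.3% of Kif20a (with Cdc23), 22.8% of Ube2c (with Tnnc2), 17.4% of Ccne2 (with Ints8), 12.5% of Ccna2 (with Exosc9) and 11.1% of Prc1 (with Rccd1). Their counts are uncertain, and the shared length does not bound by how much, since Cdc23 held 4864 counts against 240 for Kif20a and Gse1 held 1686 against 508 for Gins2. Tnnc2, a gene of fast skeletal muscle, was itself listed at 0 counts in every mouse, while control 3 was high in skeletal muscle markers. Ube2c was 2.61 times as high in control 3 as in the next mouse. Whether reads of Tnnc2 entered the counts of Ube2c was not tested.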

How the data were processed

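RNA of the prostates of 8 NOD mice, 4 per group by the treatment label, was sequenced after poly(A) selection as paired reads of 150 nt. Per the labels, the authors used fastp, STAR 2.6.1d and featureCounts 1.5.0-p3 on mm10 and tested with DESeq2 1.26.0. They deposited whole-number counts per gene and mouse, without normalization. The library kit named in the study's methods, the non-directional NEBNext Ultra II RNA kit, does not mark strand, so genes that overlap on opposite strands are uncertain. The labels give each mouse an animal number but no batch, and the block used for random assignment is not named.

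Genes were named with GENCODE M21 (GRCm38) by Ensembl identifier. Of 54532 identifiers 37 had no name there. The comparison was fitted on all genes with edgeR 4.0.16 under R 4.3.3, using TMM factors, filterByExpr (minimum count 10) and the quasi-likelihood test, with Benjamini-Hochberg adjustment over 15472 genes and a threshold of 0.05. The scripts were tested on simulated counts. Phase levels are means of log2(CPM + 1) and were given no p, since they are scores over the members. Single genes were compared with two-sided exact permutation tests on log2(CPM + 1). FPKM used exon lengths of the annotation. Promoters came from RefSeq, 1 window per gene, nearest the annotated start.

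The members and all gene lists were chosen with earlier results of these data known. Genes named with values are 13 fixed ones, the 5 members of each phase with the smallest p, those with the highest and lowest FPKM and the widest range of each phase, and the 3 genes with the smallest p of each wider list. Ccne2, Kif11, Rrm1, Mcm4, Mcm7, Ube2c, Gins2, Kif20a and Prc1 were added after their values were seen. Alternatives were other scaling factors, filters, DESeq2 1.42.0, a robust fit, removal of a trend with exon length or GC content, and leaving out each mouse. A term for animal numbers below 20 against above 49, and leaving out control 3 and etanercept 17 together, were added after seeing the data. Total counts of 13760669 to 25178942 per mouse set the precision, and the limit for a count of 0 was taken at 3 counts. The result of 1 marker list is not reported here.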

Additional observations from a re-analysis of the deposited data

Results flagged for a closer look

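In 72 groups of 4 mice, formed by the named genes and phase levels in each treatment, 2 held a mouse whose gap to its nearest neighbour took up more of the range of the group than the 95% critical value of Dixon's test allows. Chance alone gives such a gap in about 1 in 20 groups.

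Rrm2, the small subunit of ribonucleotide reductase, was low in control 1, at 1.45 on the log2(CPM + 1) scale, with a gap of 0.837 of the range of the controls. The same mouse held 48 counts of Rrm2, the lowest of the 8 mice, while Rrm1 was at 21.1 CPM there and between 24.4 and 43.7 CPM in the other mice. Without control 1 the log2 fold change of Rrm2 went from 0.37 to 0.00017. Cks2, a partner of cyclin-dependent kinases from the wider G2/M list, was low in control 69, at 2.49, with a gap of 0.911. Without control 69 its log2 fold change stayed negative.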

How the results depend on the processing

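No paired analysis was possible because the groups share no animal number. Under 19 alternatives, the 33 named genes gave 622 fold changes, of which 596 kept their direction and 26 turned direction, 17 of them on leaving out 1 mouse. Adjusted calls among members and other cell cycle genes stayed at 0. Without control 3 and etanercept 17 together, log2 fold changes turned to 0.12 (Top2a), 0.51 (Cdk1), 0.60 (Ccna2), 0.17 (Pcna), 0.20 (Cdc6), 0.42 (Cenpe) and 1.495 (Plk1), and members lower at an unadjusted p went from 1 to 0 (3.27% of all tested genes). With a term for the range of animal numbers, Cenpe was at 0.55 and Plk1 at 0.21. Leaving out 1 mouse moved Top2a from -0.75 to 0.17, Cdk1 from -0.32 to 0.36, Ccnb1 from -0.40 to 0.70, Ccna2 from -0.63 to 0.44, Pcna from -0.20 to 0.16, E2f1 from -0.012 to 0.85, Cdkn1a from -0.82 to 0.061, Cenpe from -0.73 to 0.65 and Plk1 from -0.53 to 1.66. Members lower at an unadjusted p ranged from 0 (without control 3, etanercept 19 or etanercept 52, where 3.03%, 2.66% and 2.69% of all tested genes were lower) to 3 (without control 1, with Cdc20 and Uhrf1, where 2.82% were). Other cell cycle genes lower at an unadjusted p went from 2 of 118 to 5 of 118 with library size alone (5.41% of all tested genes), 5 of 84 with at least 10 counts in every mouse (4.77%), 5 of 125 in DESeq2 (3.6%), 6 of 118 after removal of a GC trend (3.32%) and 1 of 118 with the animal number term (2.81%). On leaving out 1 mouse they ranged from 0 to 7, the latter of 121 without control 69 (5.98%). Those higher went from 1 to 0 with RLE factors (2.73% of all tested genes), in DESeq2 (2.24%) and with the trend of exon length (2.11%) or GC content (1.77%) removed, and to 0 to 3 on leaving out 1 mouse, the latter without control 69 (5.45% of all tested genes). The cause was not tested. The difference in the S phase level lay between -0.27 and 0.13 over the other alternatives and between -0.33 and 0.06 on leaving out 1 mouse. For the G2/M level these ranges were -0.11 to 0.26 and -0.23 to 0.30. With 4 mice per group and a median coefficient of variation of 0.597 between mice for the members, small changes were not detectable.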
